A study of Homo sapiens with 18 samples.

Results

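The response of podocytes to THP-1-derived macrophages on fractal topography was measured in 6 of the 18 libraries of the study. The libraries were taken by their labels and fall into 2 groups of 3, though the comparison was chosen with earlier results of these data known. In the first group, called fractal THP-1 here, PODO/TERT256 podocytes on 3D hemispheres with a fractal surface were inflamed by macrophages made from the THP-1 line, which stems from a human monocytic leukaemia. In the second, called fractal control, the same line was left untreated on the same surface. PODO/TERT256 is a single human podocyte line immortalised with telomerase, so the telomerase transgene is shared by both groups and every result comes from 1 line. The study also holds podocytes on smooth hemispheres with THP-1 (smooth THP-1, 3 libraries) and untreated (smooth control, 3 libraries), used below to show where the fractal response differed. A further 6 libraries of podocytes given TNF-α and IL-6 entered only the estimate of the spread. The labels give neither the length of exposure, nor the number of macrophages, nor a step that separated the cells before lysis. Whether each library had a culture of its own is not given either, so p-values measure a spread that may be technical.

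Podocytes are the epithelial cells that wrap the capillaries of the kidney glomerulus with interlocking foot processes, lay down part of the glomerular basement membrane and are largely postmitotic in the mature kidney. Macrophages signal to neighbouring cells through cytokines such as TNF-α, IL-1 and IL-6, which act through NF-kB and STAT transcription factors to switch on chemokines, adhesion molecules, complement and acute phase genes. Podocytes also sense the shape and stiffness of their support through integrins, the actin cytoskeleton and the coactivators YAP and TAZ.

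The fractal THP-1 libraries held 17133422, 16668852 and 11488204 counts and the fractal control libraries 17402863, 21264180 and 17357103. Fractal THP-1 replicate 3, the shallowest, stood apart. It had counts for 17934 genes, against 22609 and 22907 in its companions and 21337 to 21857 in the controls. Mitochondrially encoded genes took 0.847% of its counts (95% Wilson interval 0.842 to 0.853, counting error only), against 4.39% (4.379 to 4.398) and 4.47% (4.457 to 4.477) in its companions and 3.86% to 4.20% in the controls. A chi-square test of counts gave 58.2 and 57.1 per degree of freedom for its pairs with fractal THP-1 replicates 1 and 2, 3.32 for the pair of those 2 libraries, and 2.75 to 3.24 for the pairs of controls. Counts of calls are therefore also given without it where they differ.

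The labelled cell type was checked against its markers. Of 15 podocyte markers, 8 were high enough to test. SYNPO and CD2AP, which encode proteins of the actin cytoskeleton and slit diaphragm, were among them, whereas NPHS1 (nephrin) had 0 counts in fractal THP-1 and 3 in fractal control, WT1 had 2 and 0, and DACH1 and LMX1B had none in either. Of 27 markers of monocytes and macrophages, 13 passed the filter on low counts and were higher in fractal THP-1. Several passed it only through the THP-1 groups, such as TYROBP and SPI1 with 0 counts in fractal control, so their direction was fixed by the filter. Without a filter 25 were tested and 14 were higher, where 3919 of all 33741 genes were higher. Their summed level was 36.5 to 42.0 counts per 1e6 counts (CPM) in fractal THP-1 (mean 38.6 ± 3.0, SD, n = 3) and 4.61 to 5.70 CPM in fractal control (5.01 ± 0.60). With THP-1 on smooth topography it was 80.2 ± 5.4 CPM, against 5.75 ± 0.89 CPM in smooth control. ITGB2, a leukocyte integrin subunit, had 398 counts in fractal THP-1 and 2 in fractal control, a ratio of 243 with an exact counting interval of 66.7 to 2010.0. CD14 rose by 2.39 ± 0.31 (log2, SE). The macrophage markers C1QA, C1QB, C1QC and MARCO had no count in either group, and CD68 had 1 count in each. Podocyte markers summed to 331 ± 13 CPM in fractal THP-1 and 304.0 ± 7.0 CPM in fractal control, endothelial markers to 18.5 ± 3.7 and 9.82 ± 2.1 CPM, mesangial and smooth muscle markers to 94.3 ± 15 and 293 ± 2.0 CPM, and parietal and tubule epithelial markers to 1559 ± 139.6 and 937 ± 7.5 CPM. The members of these sums did not move together. PECAM1 had 485 counts in fractal THP-1 and 18 in fractal control, whereas KDR had 23 and 103, and of 5 endothelial markers tested 2 were higher and 1 was lower. TAGLN had 2498 counts in fractal THP-1 and 13803 in fractal control, whereas PDGFRA had 264 and 29, and of 7 mesangial markers 1 was higher and 4 were lower (3 without replicate 3). PAX8 had 40885 counts in fractal THP-1 and 15827 in fractal control, whereas KRT18 had 2847 and 6910, and of 5 parietal and tubule markers 2 were higher and 1 was lower (2 of 6 lower without replicate 3). Over all genes tested with all libraries, 25.0% were higher and 25.5% were lower. A share of 1 in 5 lower or 1 in 7 higher lies under those values. In bulk RNA, fewer cells of a type and less RNA per cell cannot be told apart. The part of the macrophage RNA in the gene groups below was not tested.

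**Figure D1:**
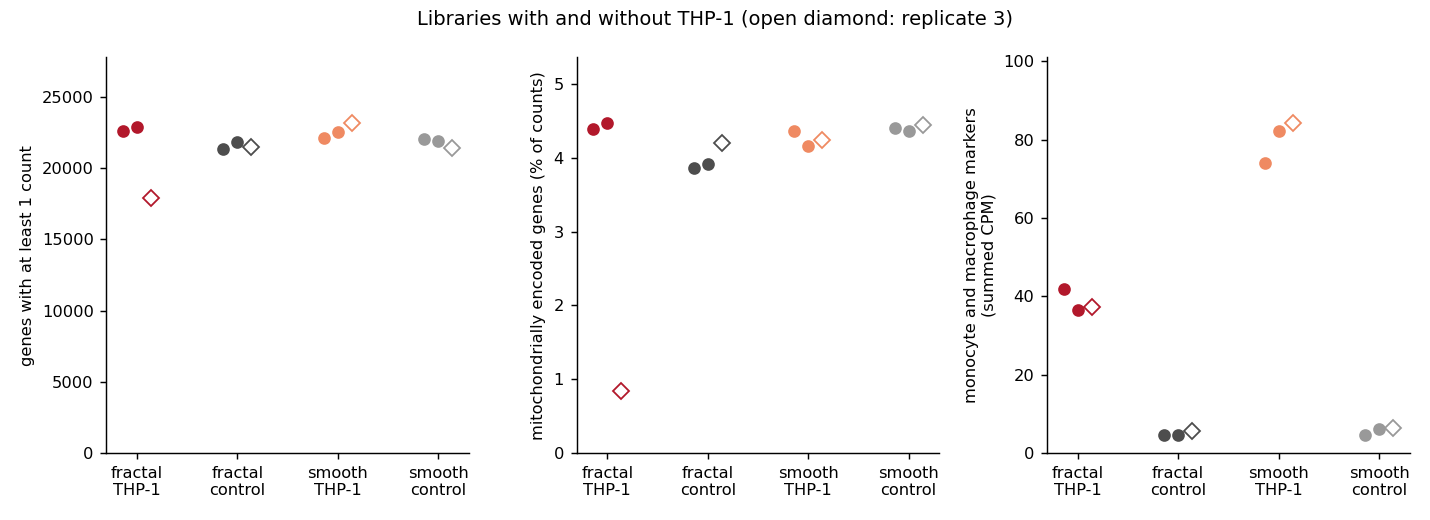
Genes with at least 1 count, the percent of counts on mitochondrially encoded genes and the summed level of monocyte and macrophage markers (CPM), 1 point per library for fractal THP-1, fractal control, smooth THP-1 and smooth control. Open diamonds mark replicate 3 of each group. Fractal THP-1 replicate 3 lies lowest on the first 2 measures, and its marker sum lies with its companions, above every control.

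Of 16129 genes tested, 8149 (50.5%) passed an adjusted p of 0.05 in the quasi-likelihood test of edgeR, adjusted by Benjamini-Hochberg: 4035 (25.0%) were higher in fractal THP-1 and 4114 (25.5%) were lower. Without replicate 3, 8592 of 16661 genes passed (51.6%), 4101 of them higher (24.6%) and 4491 lower (27.0%). Of the first set, 7328 genes (89.9%) were also called without that library, with the same direction in each, and 821 were tested but not called. The split of calls depended on the scaling and the threshold, with 4710 higher and 3535 lower under upper-quartile scaling and 1926 higher and 1073 lower at a log2 fold change of at least 1. The median log2 fold change over all genes tested was 0.04. The 3 and 3 libraries did not overlap for 8891 genes (55.1%). Counts of calls on fractal topography in the lists below are read against the shares of 25.0% higher and 25.5% lower.

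By the log2 fold change of the fit, the largest rise among protein-coding genes above 5 CPM was in BDKRB2, followed by IL33. A prior count of 2 draws that value toward 0, most where counts are few, so plain ratios order the genes otherwise. The ratio of mean CPM was 265 for BDKRB2 and 144 for IL33, but 460.5 for CHI3L1 and 668 for SAA2. BDKRB2, the bradykinin B2 receptor gene (ENSG00000168398, chr14:96204679-96244166, GRCh38), had 47.5, 41.4 and 58.3 CPM in fractal THP-1, against 0.287, 0.0938 and 0.174 CPM in fractal control, a log2 fold change of 7.36 ± 0.32 (SE, adjusted p = 1.86e-15). IL33, which encodes a cytokine of the IL-1 family that is stored in the nucleus, had 281, 284 and 195 CPM in fractal THP-1, against 1.49, 1.5 and 2.27 CPM in fractal control (log2 7.09 ± 0.28). Ranked genes had to be called with and without replicate 3 and not to overlap between the groups, so this separation was required. Replicate 3 was the lowest of the treated libraries for IL33 and the highest for BDKRB2. CHRD (chordin, a secreted antagonist of BMPs) followed at log2 6.93 ± 0.27, with 135, 137 and 224 CPM in fractal THP-1, against 0.745, 1.31 and 1.63 CPM in fractal control. SAA1, an acute phase apolipoprotein gene, had 21, 24.3 and 42.6 CPM in fractal THP-1 and at most 0.172 CPM in fractal control (log2 6.90 ± 0.36). Reads shared with its near copy SAA2 leave the level of each uncertain. IQCD (log2 6.89 ± 0.16) came next. CHI3L1, a secreted chitinase-like glycoprotein gene that macrophages also express, had 832 counts in fractal THP-1 and 2 in fractal control, a ratio of 507 (exact counting interval 140.0 to 4195). SHH, the sonic hedgehog ligand gene, rose by 6.73 ± 0.23, SLITRK4, a neuronal adhesion gene, by 6.57 ± 0.24, and PDK4, a kinase that turns off pyruvate dehydrogenase, by 6.50 ± 0.39. CHRNA1, an acetylcholine receptor subunit gene, had no count in the controls and 8.75 to 10.2 CPM in fractal THP-1, at least 176-fold higher with the control group set to the floor of 3 counts. Each gene named here averaged under 5 CPM in fractal control, so it could enter this ranking only as a rise. BDKRB2, SAA1, CHI3L1, PDK4 and CHRNA1 also stayed under the filter's minimum count of 10 in every fractal control library. Their direction was thus fixed by the selection, whatever their p-values.

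The largest fall by the same measure was in FGB. FGB, the fibrinogen beta chain gene (ENSG00000171564, chr4:154562956-154571086, GRCh38), had 0.586, 0.531 and 1.43 CPM in fractal THP-1, against 305, 309 and 303 CPM in fractal control (log2 -8.39 ± 0.51, adjusted p = 1.13e-08). FGG, the gamma chain gene, had no count in fractal THP-1 and 8.03 to 8.84 CPM in fractal control, at least 129-fold lower, and FGA, the alpha chain gene, averaged 0.0867 ± 0.088 CPM in fractal THP-1 and 5.11 ± 0.50 CPM in fractal control. All 3 chains of the clotting protein were thus at or near 0 with THP-1. DKK1, a secreted Wnt antagonist gene, fell by 6.04 ± 0.29, CPA4, a carboxypeptidase gene, by 5.82 ± 0.24, and ANKRD1, a nuclear protein gene switched on by stretch, by 5.16 ± 0.21. MEST fell by 4.44 ± 0.30, CCBE1, a factor needed to process VEGF-C, fell by 4.17 ± 0.16, and EDN1, the endothelin-1 gene, fell by 3.88 ± 0.18. POSTN, the matricellular protein periostin, had 85.0, 71.6 and 59.5 CPM in fractal THP-1, against 1001, 996 and 971 CPM in fractal control (log2 -3.77 ± 0.13). For each ranked fall the naming rule required that the 2 groups of libraries not overlap. The genes named here other than POSTN averaged under 5 CPM in fractal THP-1, so they could enter this ranking only as falls.

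**Figure D2:**
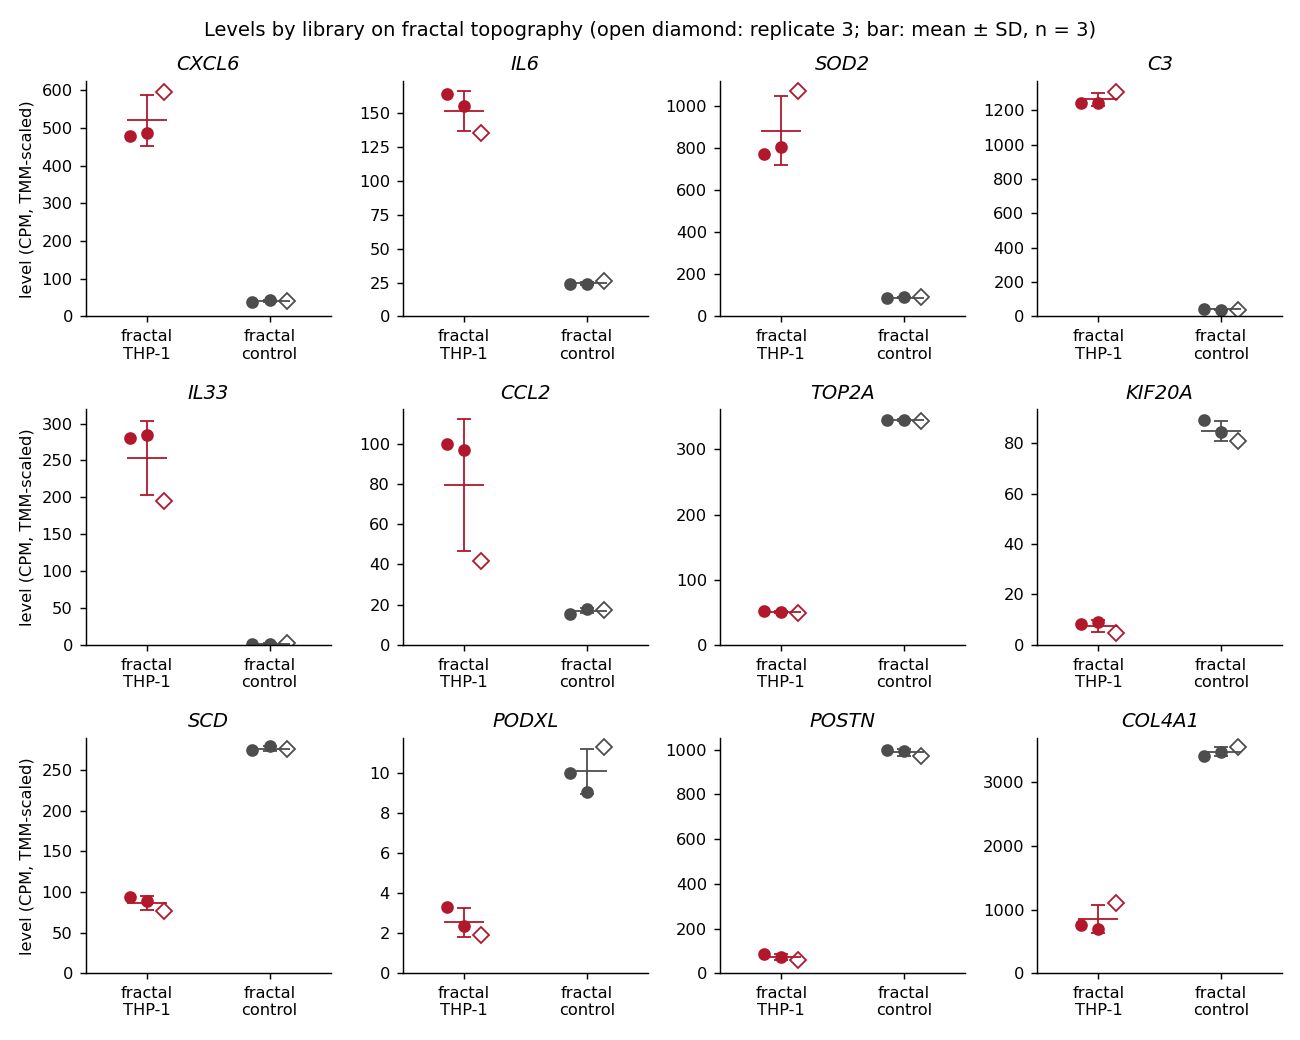
Levels of 12 genes (CPM with TMM scaling, linear axes from 0) in the 3 fractal THP-1 libraries and the 3 fractal control libraries, with the mean and SD of each group. The groups do not overlap for any of the 12, where they did not for 55.1% of all genes tested. The naming rule required this of IL33 and POSTN, and the other genes shown were named by adjusted p within lists or from the panel. Replicate 3 (open diamond) stands away from its THP-1 companions for CCL2, IL33, SOD2 and COL4A1.

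Genes of cell division were lower throughout the list tested. All 40 cell cycle genes tested were called lower in fractal THP-1, where 25.5% of all genes were, with a median log2 fold change of -2.54. Without replicate 3 the number was 39, PRC1 being the exception (log2 -1.09 with all libraries, adjusted p = 0.0383, and -0.80 with adjusted p = 0.176 without replicate 3). TOP2A, the topoisomerase that untangles chromosomes before they separate (ENSG00000131747, chr17:40388516-40417950, GRCh38), had 52.5, 50.5 and 49.4 CPM in fractal THP-1, against 346, 346 and 344 CPM in fractal control (log2 -2.76 ± 0.09, adjusted p = 2.95e-17). The groups did not overlap, and replicate 3 sat with its companions. TPX2, a spindle assembly factor, fell by 2.73 ± 0.10, and KIF20A, a mitotic kinesin, had the lowest value of the list at -3.47 ± 0.14. CCNB1, the cyclin that drives entry into mitosis, averaged 19.4 ± 2.5 CPM in fractal THP-1 and 119 ± 2.3 CPM in fractal control. CDK1, its kinase partner, averaged 14.1 ± 1.9 CPM in fractal THP-1 and 79.1 ± 5.1 CPM in fractal control, and the proliferation marker MKI67 45.8 ± 17 and 381 ± 10 CPM. PCNA, the sliding clamp of DNA polymerase, had the smallest fall of the list, at -0.46. The values of the named genes are chosen from the list by adjusted p, with MKI67 from a panel chosen for podocytes and inflammation and CDK1, PCNA and PRC1 after their values were seen.

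The promoters of genes of late cell division are known to carry CCAAT boxes, bound by NF-Y, and a cell cycle homology region, TTTGAA, bound by the DREAM and MuvB complexes. The following sequences, the 200 bases before the RefSeq start of 4 of the genes that fell (GRCh38.p14, read 5′ to 3′ on the strand of the gene), are shown so that these letters can be seen in place. Capitals mark TTTGAA and CCAAT on either strand (TTCAAA and ATTGG on the other).
TOP2A (chr17:40417897-40418096, minus strand): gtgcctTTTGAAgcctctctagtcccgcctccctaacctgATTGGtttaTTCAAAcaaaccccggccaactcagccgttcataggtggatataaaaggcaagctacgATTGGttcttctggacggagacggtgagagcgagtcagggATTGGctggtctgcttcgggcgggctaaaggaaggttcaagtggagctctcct
CCNB1 (chr5:69166950-69167149, plus strand): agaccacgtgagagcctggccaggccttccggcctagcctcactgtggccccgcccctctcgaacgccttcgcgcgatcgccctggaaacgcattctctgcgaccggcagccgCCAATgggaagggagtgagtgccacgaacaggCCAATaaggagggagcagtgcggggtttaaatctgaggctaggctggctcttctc
KIF20A (chr5:138178912-138179111, plus strand): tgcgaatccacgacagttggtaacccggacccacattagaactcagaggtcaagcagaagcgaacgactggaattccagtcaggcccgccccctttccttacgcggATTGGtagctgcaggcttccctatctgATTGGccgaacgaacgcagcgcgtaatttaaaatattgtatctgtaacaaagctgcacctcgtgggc
CDK1 (chr10:60778131-60778330, plus strand): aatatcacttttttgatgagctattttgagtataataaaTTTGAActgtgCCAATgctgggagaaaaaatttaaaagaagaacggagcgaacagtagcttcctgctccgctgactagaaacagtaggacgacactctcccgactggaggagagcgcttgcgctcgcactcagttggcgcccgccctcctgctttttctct
Within such windows of 27305 genes, CCAAT occurred on either strand in 28.9% and TTTGAA in 10.5%. Of the 33 cell cycle genes with a promoter in the table, 28 (84.8%) held CCAAT and 13 (39.4%) held TTTGAA. Of 10 complement genes with a promoter in the table, 3 (30.0%) held CCAAT and 3 (30.0%) held TTTGAA. TOP2A held both, with CCAAT (as ATTGG) at 160 to 156, 93 to 89 and 53 to 49 bases before the start, and CCNB1 and KIF20A held CCAAT alone. A match describes the letters in this window and shows no binding.

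Of 27 targets of p53, the transcription factor that halts the cell cycle after damage, 15 rose and 5 fell (13 and 7 without replicate 3), where 25.0% of all genes rose and 25.5% fell. Their median log2 was 0.37. CDKN1A, which encodes the cyclin-dependent kinase inhibitor p21, had 241, 238 and 242 CPM in fractal THP-1, against 133, 128 and 131 CPM in fractal control (log2 0.88 ± 0.08, adjusted p = 5.18e-10). TP53INP1, which promotes cell cycle arrest and autophagy, rose by 1.86 ± 0.15, and RRM2B, a ribonucleotide reductase subunit for repair, by 0.95 ± 0.08. The growth arrest gene GADD45B fell by 1.60 ± 0.15 and the pro-apoptotic gene PMAIP1 by 1.51 ± 0.15. GADD45A rested on replicate 3: it had 66.3, 71.6 and 136 CPM in fractal THP-1 and 101 to 106 CPM in fractal control, was not called with all libraries (adjusted p = 0.476) and fell by 0.59 without replicate 3.

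Inflammatory genes were mostly higher. Among NF-kB and TNF target genes 30 of 46 tested rose and 4 fell, where 25.0% of all genes rose, with a median log2 of 0.70. Without replicate 3 the numbers were 27 and 4. SOD2, the mitochondrial superoxide dismutase that NF-kB induces, had 773, 806 and 1072 CPM in fractal THP-1, against 88.5, 91.6 and 90.9 CPM in fractal control (log2 3.29 ± 0.12, adjusted p = 4.16e-17). IL6, the cytokine that drives the acute phase response, had 164, 155 and 135 CPM in fractal THP-1, against 23.9, 23.6 and 25.9 CPM in fractal control (log2 2.62 ± 0.09). For each gene every THP-1 library lay above every control. PLAU, the urokinase plasminogen activator, rose by 2.22 ± 0.11 and NFKBIA, the inhibitor that NF-kB induces against itself, by 1.22 ± 0.09 (named after its value was seen). The leukocyte adhesion genes parted: ICAM1 averaged 60.3 ± 2.3 CPM in fractal THP-1 and 22.6 ± 0.54 CPM in fractal control (log2 1.41 ± 0.09), whereas VCAM1 averaged 494 ± 55 CPM in fractal THP-1 and 644 ± 2.3 CPM in fractal control (log2 -0.38 ± 0.09). PTX3, a pentraxin of innate defence, fell by 1.93 ± 0.23. TNF itself was near the limit of detection, with 0.168 to 0.354 CPM in fractal THP-1 and 0.0582 to 0.188 CPM in fractal control, and was not called (log2 0.68 ± 0.53, adjusted p = 0.301).

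Chemokines that attract neutrophils and monocytes rose in 9 of 12 cases tested and fell in 1 (8 and 1 without replicate 3). Their median log2 was 1.90, and 25.0% of all genes rose. CXCL6, a ligand of the neutrophil receptors CXCR1 and CXCR2, had 477, 485 and 596 CPM in fractal THP-1, against 39.6, 44.9 and 42.1 CPM in fractal control (log2 3.62 ± 0.14, adjusted p = 3.01e-15). CXCL1 rose by 1.67 ± 0.09 and CXCL8 (interleukin 8) by 0.84 ± 0.08, both ligands of CXCR2. CXCL12, the ligand of CXCR4, averaged 15.9 ± 3.1 CPM in fractal THP-1 and 0.135 ± 0.12 CPM in fractal control. With 3, 0 and 4 counts in the fractal control libraries, it had no room to fall. CCL2, the main attractant of monocytes, had 99.7, 96.8 and 41.8 CPM in fractal THP-1, against 15.6, 18 and 17.3 CPM in fractal control (log2 2.23 ± 0.30, and 2.52 without replicate 3). Replicate 3 was thus under the level of its companions but still above every control. CXCL3 fell by 1.10 ± 0.19. Reads shared among the close relatives CXCL1, CXCL2 and CXCL3 leave the level of each uncertain.

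Many such genes are known targets of NF-kB, whose dimers bind DNA elements of the form GGNNTTTCC. The 200 bases before the RefSeq start of 5 of the genes that rose (GRCh38.p14, 5′ to 3′ on the strand of the gene) are shown for the same reason, with matches to GGNNTTTCC on either strand (GGAAANNCC on the other) in capitals.
CXCL6 (chr4:73836478-73836677, plus strand): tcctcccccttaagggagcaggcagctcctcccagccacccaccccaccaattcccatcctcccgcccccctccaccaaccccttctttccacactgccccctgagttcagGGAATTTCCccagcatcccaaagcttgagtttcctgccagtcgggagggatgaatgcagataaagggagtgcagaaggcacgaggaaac
CXCL1 (chr4:73869193-73869392, plus strand): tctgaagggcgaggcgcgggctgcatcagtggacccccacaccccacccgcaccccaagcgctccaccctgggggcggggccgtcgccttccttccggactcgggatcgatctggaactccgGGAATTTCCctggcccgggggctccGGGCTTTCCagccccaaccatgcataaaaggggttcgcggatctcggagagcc
CXCL8 (chr4:73740369-73740568, plus strand): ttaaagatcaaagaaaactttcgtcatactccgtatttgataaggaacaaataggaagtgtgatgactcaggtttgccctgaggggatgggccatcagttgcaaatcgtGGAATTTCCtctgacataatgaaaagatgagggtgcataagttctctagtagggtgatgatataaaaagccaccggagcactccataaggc
IL6 (chr7:22727000-22727199, plus strand): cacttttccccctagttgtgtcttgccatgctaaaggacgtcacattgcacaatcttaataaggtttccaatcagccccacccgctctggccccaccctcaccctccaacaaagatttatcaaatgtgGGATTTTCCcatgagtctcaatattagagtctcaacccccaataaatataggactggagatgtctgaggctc
ICAM1 (chr19:10270920-10271119, plus strand): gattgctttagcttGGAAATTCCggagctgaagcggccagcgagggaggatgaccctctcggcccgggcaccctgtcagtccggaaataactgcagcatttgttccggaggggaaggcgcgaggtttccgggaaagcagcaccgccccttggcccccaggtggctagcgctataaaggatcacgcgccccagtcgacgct
Matches to this pattern occurred in 4.46% of the 27305 windows. They occurred in 18 of the 38 promoters that the table holds for NF-kB and TNF targets (47.4%) and in 1 of 33 cell cycle genes. Of 10 complement genes, a list that mostly rose, 0 held a match. In CXCL6, CXCL8 and IL6 the match lay 64 to 91 bases before the start, in ICAM1 178 to 186 bases before it, and CXCL1 held 2. The letters alone do not show that the site was used.

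Complement genes rose in 9 of 15 cases tested, where 25.0% of all genes rose, and fell in 2 (9 and 2 without replicate 3). Their median log2 was 1.53. C3, the central component that all complement pathways cleave (ENSG00000125730, chr19:6677704-6730562, GRCh38), had 1243, 1240.1 and 1306 CPM in fractal THP-1, against 41.7, 40.1 and 40.1 CPM in fractal control (log2 4.95 ± 0.14, adjusted p = 1.47e-17). C1R and C1S, the proteases that start the classical pathway, rose by 3.79 ± 0.13 and 4.37 ± 0.17. CFB, the protease component of the alternative pathway, averaged 7.62 ± 0.71 CPM in fractal THP-1 and 1.14 ± 0.27 CPM in fractal control (named after its value was seen). CD59, the membrane inhibitor of the attack complex, went the other way, by -0.91 ± 0.07. C5, which also fell (log2 -0.80 ± 0.27, adjusted p = 0.0154), lost its call in a fit to these 6 libraries alone and without any 1 of fractal control replicates 2 and 3 and fractal THP-1 replicate 2.

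Genes of the IL-6 and STAT3 response split. Of 18 tested, 8 rose and 5 fell (9 and 4 without replicate 3), and the median log2 was 0.11. Over all genes 25.0% rose and 25.5% fell, the second share close to that of this list. The acute phase genes SAA1 and SAA2, the transcription factor CEBPD (1.87 ± 0.13) and the feedback inhibitor SOCS1 (2.85 ± 0.22) rose. The fibrinogen genes FGA, FGB and FGG, which IL-6 induces in liver cells, fell as given above, and OSMR, the oncostatin M receptor, fell by 0.68 ± 0.12. SAA2 had 493 counts in fractal THP-1 and 1 in fractal control, a ratio of 601 (exact counting interval 107 to 23790.0). SAA1 and SAA2 had so few counts in fractal control that they had no room to fall.

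Type I interferon response genes rose in 19 of 33 cases tested, where 25.0% of all genes rose. In 3 cases they fell (22 rose and 3 fell without replicate 3), and the median log2 was 0.69. STAT2, a transcription factor of interferon signalling, rose by 1.22 ± 0.09 and IFI6, an interferon-induced mitochondrial protein, by 2.09 ± 0.25. IFITM3, a membrane protein that blocks viral entry, fell by 0.66 ± 0.15. Among 19 genes of MHC class I presentation, 12 rose and 3 fell (13 and 3 without replicate 3), with a median log2 of 0.65. HLA-B rose by 1.99 ± 0.10 and B2M, the light chain of class I, by 0.81 ± 0.08, while the chaperones of the endoplasmic reticulum PDIA3 and CALR, which help to load peptides, fell by 0.68 ± 0.08 and 0.70 ± 0.09. Reads shared between HLA genes leave the level of each uncertain. Macrophages express class I and interferon genes as well, and the part of their RNA in these lists was not tested.

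**Figure D3:**
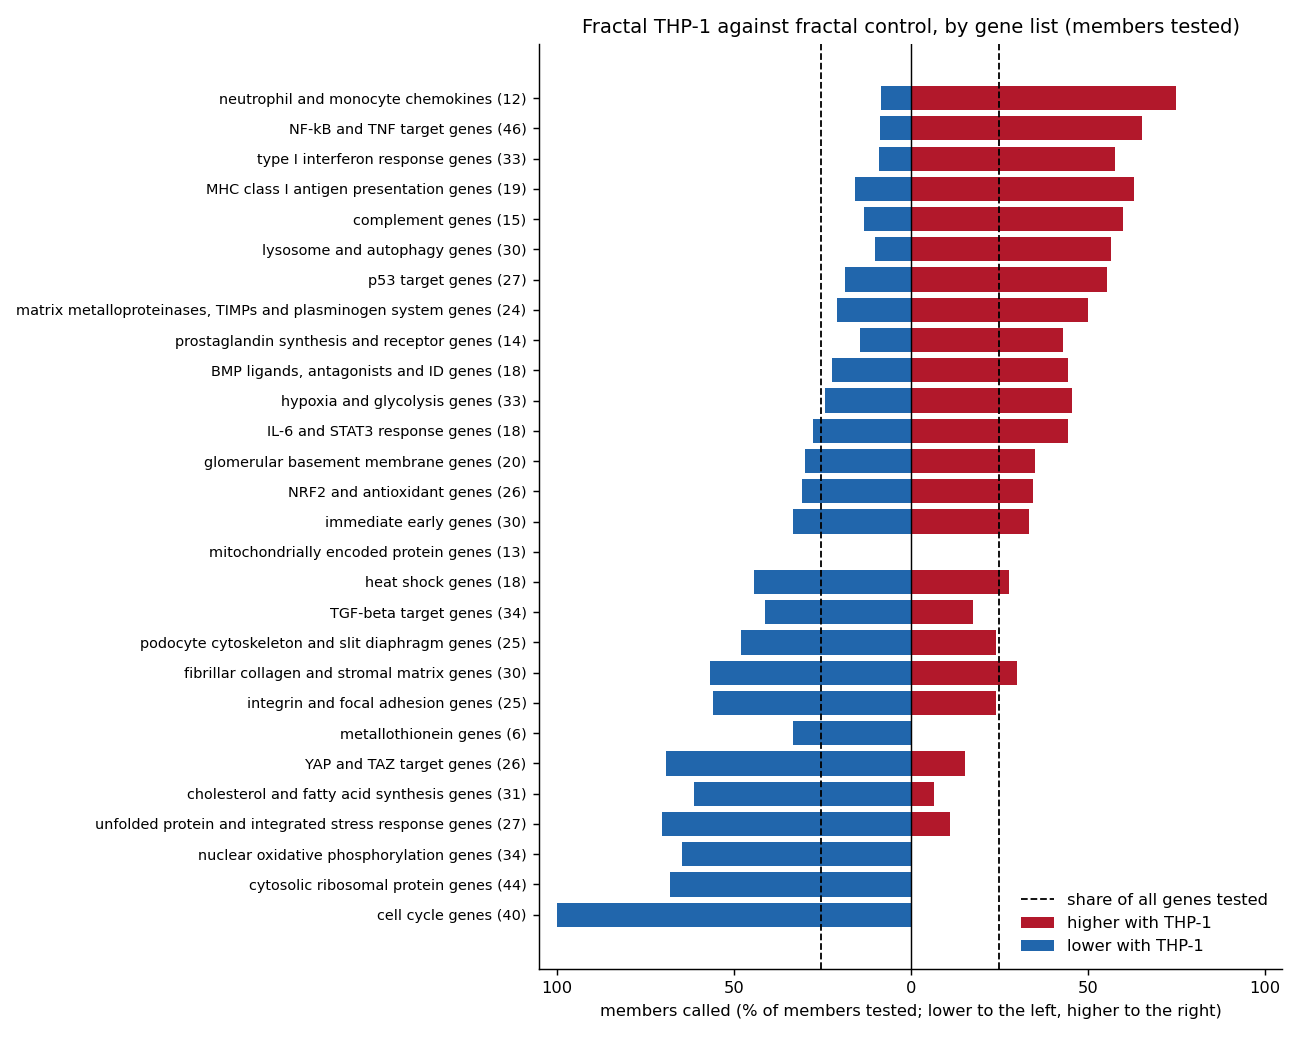
Percent of the tested members of each of 28 gene lists called higher (right, red) and lower (left, blue) in fractal THP-1 against fractal control, with the number tested in parentheses. Dashed lines mark the shares over all genes tested, 25.0% higher and 25.5% lower. The cell cycle list lies wholly to the left, and the chemokine and NF-kB lists lie furthest to the right.

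Genes of the stromal matrix changed in both directions. Of 30 fibrillar collagen and stromal matrix genes, 9 rose and 17 fell, with a median log2 of -0.36. The share that rose was close to the 25.0% of all genes, whereas 25.5% of all genes fell. FN1, the fibronectin gene, took 18.49%, 17.74% and 14.45% of all counts in fractal THP-1, against 8.27%, 8.258% and 8.33% in fractal control (log2 1.01 ± 0.12, adjusted p = 8.26e-08). The small proteoglycan genes LUM (lumican) and DCN (decorin) rose by 1.66 ± 0.11 and 2.24 ± 0.16. TGFBI, a matrix adapter protein induced by TGF-beta, fell by 2.34 ± 0.08, COL6A3 by 2.47 ± 0.10 and LOX, which crosslinks collagen, by 0.96 ± 0.09. The collagen VI chains parted, since COL6A2 rose by 1.25 ± 0.10 and COL6A1 by 0.93 ± 0.11. COL1A1, a fibrillar collagen chain, depended on replicate 3. It had 3165, 3159.7 and 8292 CPM in fractal THP-1, against 6395, 6322 and 6426 CPM in fractal control. Replicates 1 and 2 lay below the controls and replicate 3 above them, so that it was not called with all libraries (adjusted p = 0.323) and fell by 1.02 without replicate 3.

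Of 20 glomerular basement membrane genes, 7 rose and 6 fell (7 and 9 without replicate 3), shares close to those of all genes. COL4A1, a chain of the immature collagen IV network (ENSG00000187498, chr13:110148963-110307233, GRCh38), had 752, 702 and 1109 CPM in fractal THP-1, against 3404, 3467 and 3542 CPM in fractal control (log2 -2.02 ± 0.12, adjusted p = 7.88e-13). Its partner COL4A2 fell by 0.69 ± 0.09 and the linker NID1 by 1.02 ± 0.09. COL4A3, a chain of the mature podocyte network, stood at 0.649 to 1.52 CPM in fractal THP-1 and 0.803 to 1.13 CPM in fractal control and was not called (log2 -0.01 ± 0.26, adjusted p = 0.989). The laminin genes LAMA3 and LAMA5 rose by 3.38 ± 0.11 and 1.09 ± 0.12, whereas LAMB1 fell by 0.39 ± 0.08. LAMA5 belongs to the main laminin of the mature membrane, and LAMA3 to the laminin of epithelial hemidesmosomes.

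Among matrix metalloproteinases, TIMPs and genes of the plasminogen system, 12 of 24 rose and 5 fell (12 and 6 without replicate 3). Over all genes 25.0% rose and 25.5% fell, the second share close to that of this list. The activator PLAU rose, as given above. SERPINE2, an inhibitor of such proteases, fell by 1.22 ± 0.09. The gelatinase MMP2 rose by 1.47 ± 0.08 and the aggrecanase ADAMTS5 by 2.96 ± 0.15, while the collagenase MMP1 fell by 1.07 ± 0.10 and ADAMTS1 by 1.98 ± 0.10.

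Of 34 targets of TGF-beta, 6 rose and 14 fell, with a median log2 of -0.17 (17 fell without replicate 3). Over all genes tested 25.0% rose and 25.5% fell. The ligand gene TGFB2 averaged 28.4 ± 8.2 CPM in fractal THP-1 and 129 ± 5.5 CPM in fractal control (log2 -2.16 ± 0.14), and the receptor gene TGFBR2 rose by 0.51 ± 0.08. Of 18 related BMP genes tested, 8 rose and 4 fell (8 and 5 without replicate 3), the second share close to that of all genes. The ligands BMP2 (2.56 ± 0.12) and BMP4 (2.36 ± 0.27) rose, and so did the secreted antagonists CHRD, NOG (3.30 ± 0.22) and GREM1. GREM1 averaged 1748 ± 138 CPM in fractal THP-1 and 327 ± 9.3 CPM in fractal control. The ligand gene GDF6 fell by 2.95 ± 0.14, and the ID genes, which BMP signals switch on, fell as well: ID1 by 1.12 ± 0.11 and ID3 by 0.56 ± 0.11.

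Genes of the podocyte's own architecture were lower more often than higher. Of 25 podocyte cytoskeleton and slit diaphragm genes tested, 12 fell (13 without replicate 3) and 6 rose, with a median log2 of -0.18. Of all genes tested 25.5% fell and 25.0% rose, so the share that rose was close to that of all genes. PODXL (podocalyxin, which charges the surface of foot processes) had 3.34, 2.36 and 1.94 CPM in fractal THP-1, against 9.06 to 11.3 CPM in fractal control (log2 -1.92 ± 0.23, adjusted p = 1.11e-07). VIM, the intermediate filament vimentin, fell by 1.19 ± 0.08, EZR, which links podocalyxin to actin, by 0.96 ± 0.07, and the transcription factor FOXC2 by 1.08 ± 0.10. ANLN, an actin-binding protein that also acts in cell division, fell most, by 2.74 ± 0.10. The nephrin relative KIRREL1 rose by 0.64 ± 0.08 and the actin adapter NCK2 by 0.77 ± 0.09. SYNPO (synaptopodin, which stabilises actin in foot processes) had 66.9, 74.6 and 54.8 CPM in fractal THP-1, against 71.3, 66.4 and 69.4 CPM in fractal control. These groups overlapped, and the change was not called (log2 -0.07 ± 0.11, adjusted p = 0.587). Outside this list, the surface protein genes MME (2.43 ± 0.17) and PLA2R1, the main antigen of membranous nephropathy (1.68 ± 0.15), rose and NES, the filament protein nestin, fell by 1.84 ± 0.19.

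Targets of YAP and TAZ fell in 18 of 26 cases and rose in 4 (21 and 3 without replicate 3), with a median log2 of -0.71. Among all genes tested 25.5% fell and 25.0% rose. ANKRD1 had 1.88, 2.54 and 1.09 CPM in fractal THP-1, against 74.4, 70.9 and 71.1 CPM in fractal control. CCN2, a matricellular protein gene, averaged 361 ± 5.1 CPM in fractal THP-1 and 874 ± 8.5 CPM in fractal control (log2 -1.28 ± 0.08). DLC1, which turns off the GTPase RhoA, fell by 2.48 ± 0.10, and IGFBP3 rose by 1.46 ± 0.10. Integrin and focal adhesion genes fell in 14 of 25 cases and rose in 6 (16 and 5 without replicate 3). The share that rose was close to that of all genes. ITGA4 and ITGA6, the alpha subunits of fibronectin and laminin receptors, fell by 2.76 ± 0.12 and 2.77 ± 0.15, ITGA5, of the main fibronectin receptor, by 1.16 ± 0.07, while ITGA11, of a collagen receptor, rose by 1.75 ± 0.12 and ITGB8, which activates latent TGF-beta, by 1.74 ± 0.12.

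In metabolism, genes of cholesterol and fatty acid synthesis fell in 19 of 31 cases (21 without replicate 3) and rose in 2, with a median log2 of -0.47. SCD, the desaturase that makes oleic acid, had 93.3, 89.5 and 76.9 CPM in fractal THP-1, against 274, 279 and 275 CPM in fractal control (log2 -1.67 ± 0.08, adjusted p = 7.33e-15). ACLY, which supplies acetyl-CoA, fell by 0.72 ± 0.07. TM7SF2, a sterol reductase gene, rose by 1.82 ± 0.18. Hypoxia and glycolysis genes rose in 15 of 33 cases, where 25.0% of all genes rose, and fell in 8, a share close to the 25.5% of all genes (14 and 10 without replicate 3). The stress gene NDRG1 (3.04 ± 0.10), the angiogenic ligand VEGFA (1.83 ± 0.13) and the vasodilator ADM (2.27 ± 0.15) rose, while the glycolytic enzymes PFKP, ENO1, PGAM1 and LDHA fell by 1.06 ± 0.09, 0.59 ± 0.07, 0.61 ± 0.08 and 0.36 ± 0.07. VEGFA, which podocytes make for the glomerular endothelium, averaged 885 ± 32 CPM in fractal THP-1 and 248 ± 3.1 CPM in fractal control.

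Where 25.5% of all genes fell and 25.0% rose, 19 of 27 unfolded protein and integrated stress response genes fell and 3 rose (median log2 -0.70). Without fractal THP-1 replicate 3 the numbers were 21 and 2, and without fractal control replicate 3 they were 18 and 0. HSPA5, the main chaperone of the endoplasmic reticulum, had 717, 667 and 1029.7 CPM in fractal THP-1, against 1616, 1553 and 1552 CPM in fractal control (log2 -0.97 ± 0.11). Replicate 3 was the nearest to the controls but below each of them. HYOU1 fell by 1.26 ± 0.11 and HSP90B1 by 1.05 ± 0.08. Of 44 cytosolic ribosomal protein genes, 30 fell and none rose (41 fell without replicate 3). RPSA led them, at -1.19 ± 0.08. Nuclear genes of oxidative phosphorylation fell in 22 of 34 cases, with none higher (29 without replicate 3), and ATP5F1B, a catalytic subunit of ATP synthase, fell by 0.98 ± 0.07. None of the 13 mitochondrially encoded protein genes was called with or without replicate 3. Without smooth cytokines replicate 2 as well, 1 was higher and 3 were lower. That library had 8.093% of its counts on mitochondrially encoded genes, against 4.225% and 4.625% in its companions. MT-ND4, a subunit of complex I, had 4918, 5063 and 445 CPM in fractal THP-1, against 4799, 4874 and 5129 CPM in fractal control. Replicates 1 and 2 lay with the controls and replicate 3 far below them. Lysosome and autophagy genes went the other way, with 17 of 30 higher and 3 lower. The autophagosome gene GABARAPL1 rose by 1.46 ± 0.08, the lysosomal glucosidase GAA by 1.55 ± 0.10, the progranulin gene GRN by 1.53 ± 0.11 and the cathepsin CTSB by 1.01 ± 0.08. Macrophages are rich in lysosomes, and the part of their RNA in this list was not tested.

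The remaining lists held fewer or mixed changes, some in shares close to the 25.0% of all genes that rose or the 25.5% that fell. Of 30 immediate early genes, 10 rose and 10 fell (11 without replicate 3), among them MYC (down by 2.27 ± 0.14) and NR4A2 (up by 2.80 ± 0.35). NRF2 and antioxidant genes, 9 of 26 higher and 8 lower (8 and 10 of 27 without replicate 3), included a fall of 1.11 ± 0.08 in NQO1 and a rise of 1.13 ± 0.09 in GPX4, which guards membranes against lipid peroxidation. Of 18 heat shock genes 5 rose and 8 fell (4 rose without replicate 3, and 3 without fractal control replicate 2), and of 6 metallothionein genes 2 fell, MT1E and MT2A (3 fell without replicate 3). Prostaglandin genes rose in 6 of 14 cases and fell in 2 (3 without replicate 3). PTGIS, the prostacyclin synthase gene, rose by 0.84 ± 0.07. PTGS2, the inducible cyclooxygenase gene, had 51.1 to 67.6 CPM in fractal THP-1 and 67.5 to 71.9 CPM in fractal control and was not called (adjusted p = 0.215).

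On smooth topography the same comparison called 5655 genes (35.1%), 17.3% of all genes tested being higher and 17.7% lower in smooth THP-1 than in smooth control. The order of the 2 topographies depended on the fit. With the compared groups alone 6586 genes were called on fractal and 7654 on smooth topography. Without fractal THP-1 replicate 3 and smooth cytokines replicate 2 the numbers were 8806 and 7385. A direct test of the difference, the THP-1 effect on fractal minus that on smooth topography, called 2134 genes (13.2%), 863 above (5.35%) and 1271 below (7.88%). Without fractal THP-1 replicate 3 it called 3266 of 16661 genes (19.6%), 1280 above (7.68%) and 1986 below (11.9%). With upper-quartile scaling the split was 1077 above and 1014 below. The groups on each topography had their own controls, and the macrophage markers summed to less in fractal than in smooth THP-1 libraries (38.6 and 80.2 CPM). The difference test called none of the 13 markers tested, and the part of the macrophage RNA in these differences was not tested.

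The list in which the THP-1 effects differed most often was the cell cycle list. For 39 of its 40 genes the fractal effect lay below the smooth effect, where 7.88% of all genes did, and the number was 39 without replicate 3 as well. With THP-1 on smooth topography 25 of the 40 fell and none rose, where 17.7% of all genes fell and 17.3% rose. The median log2 of the list was -0.60 there, against -2.54 on fractal topography. KIF20A fell by 3.47 ± 0.14 on fractal and by 1.41 ± 0.12 on smooth topography (difference -2.06, adjusted p = 3.43e-08), TOP2A by 2.76 ± 0.09 and 1.00 ± 0.09 (difference -1.76), and MKI67 by 3.04 ± 0.21 and 0.86 ± 0.19 (difference -2.18). RRM2, which makes deoxynucleotides for replication, fell by 2.82 ± 0.15 on fractal topography and was not called on smooth topography (-0.10 ± 0.13; difference -2.73, adjusted p = 3.81e-09). CENPM, a kinetochore gene (difference -2.92), and CLSPN, a replication checkpoint gene (-2.54), stood with RRM2 among the 6 largest called differences of that sign. CDKN1A rose on fractal topography and had a log2 fold change of 0.08 ± 0.07 on smooth topography, which was not called (difference 0.80, adjusted p = 7.28e-06). Its levels with THP-1 were alike, at 240.1 CPM on fractal and 244 CPM on smooth topography. The controls differed, with 131 CPM in fractal control and 231 CPM in smooth control.

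**Figure D4:**
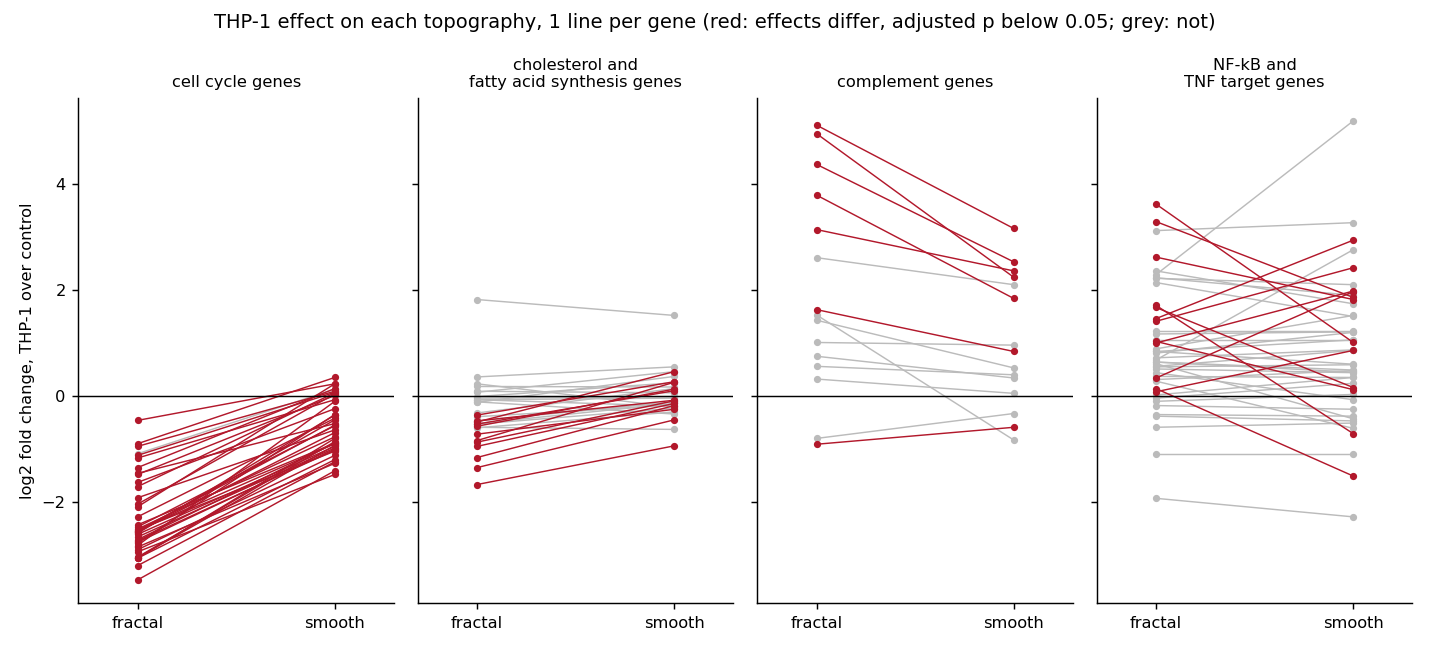
Log2 fold change of THP-1 over control on fractal (left) and smooth (right) topography for the tested genes of 4 lists, 1 line per gene, red where the 2 effects differed at an adjusted p below 0.05. The median of the cell cycle genes is -2.54 on fractal and -0.60 on smooth topography, and those complement genes drawn in red mostly descend.

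Lipid synthesis genes showed differences of the same sign. For 12 of 31 the fractal effect lay below the smooth effect (16 without replicate 3), where 7.88% of all genes did, and for none above. On smooth topography 6 fell and 4 rose, near the 17.7% of all genes that fell there and the 17.3% that rose. SCD fell by 1.67 ± 0.08 on fractal and 0.94 ± 0.08 on smooth topography (difference -0.73). For podocyte cytoskeleton and slit diaphragm genes 9 of 25 lay below (10 without replicate 3) and none above, against 7.88% and 5.35% of all genes.

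Complement genes lay above in 6 of 15 cases (7 without replicate 3) and below in 1, where 5.35% of all genes lay above. C3 rose by 4.95 ± 0.14 on fractal and 2.24 ± 0.13 on smooth topography (difference 2.72, adjusted p = 1.37e-09), and C1R by 3.79 ± 0.13 and 1.84 ± 0.12 (difference 1.95). Chemokines lay above in 4 of 12 cases (6 without replicate 3) and below in none. CXCL6 rose by 3.62 ± 0.14 on fractal and 1.01 ± 0.13 on smooth topography (difference 2.61, adjusted p = 4.92e-09), and CXCL1 rose by 1.67 ± 0.09 on fractal topography and was not called on smooth (0.16 ± 0.09; difference 1.51). Of 46 NF-kB and TNF targets, 7 lay above and 5 below (9 and 9 without replicate 3), the second share close to the 7.88% of all genes. SOD2 (difference 1.43) and IL6 (0.80) rose more on fractal topography, and ICAM1 rose by 1.41 ± 0.09 on fractal and by 2.42 ± 0.09 on smooth topography (difference -1.01, adjusted p = 3.86e-06). CXCL8 rose by 0.84 ± 0.08 on fractal and 0.60 ± 0.08 on smooth topography, a difference of 0.24 that was not called (adjusted p = 0.184, and 0.0353 without replicate 3). Interferon genes lay above in 1 and below in 3 of 33 cases, a share below close to that of all genes, and above in 2 and below in 9 without replicate 3.

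Differences were ranked over protein-coding genes above 5 CPM that the difference test called with and without fractal THP-1 replicate 3. The largest positive ones were in BDKRB2 (3.81), CHRD (3.71), SAA1 (3.61), CLSTN2, a cadherin-related gene (3.50), EHF, an epithelial transcription factor (3.39), and SAA2 (3.38). Each of these 6 was also higher with THP-1 on smooth topography, with log2 fold changes of 3.55 ± 0.31 for BDKRB2 and 1.96 ± 0.31 for EHF. On the negative side, after CENPM came NRGN, a calmodulin-binding gene (-2.90), which fell by 1.89 ± 0.21 on fractal and rose by 1.01 ± 0.19 on smooth topography, then RRM2, CPA4 (-2.71), SERPINB2 (-2.65) and CLSPN. SERPINB2, an inhibitor of plasminogen activators, averaged 6.35 ± 0.62 CPM in fractal THP-1 and 5.06 ± 0.30 CPM in fractal control and was not called on fractal topography (log2 0.33 ± 0.18, adjusted p = 0.135), whereas it rose by 2.97 ± 0.17 on smooth topography. POSTN fell on both surfaces, by 3.77 ± 0.13 on fractal and by 4.54 ± 0.13 on smooth topography (difference 0.77, adjusted p = 0.00193).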

How the data were processed

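Raw gene counts of 18 RNA-seq libraries, 3 in each of 6 groups, were used as the authors deposited them in a single table. RNA was isolated with the PicoPure kit, selected by poly-T beads, made into libraries that keep no strand and sequenced on a NovaSeq X Plus in paired reads of 150 bases, per the labels' protocols. The submitters' processing notes name the build GRCh38 (hg38) and the tools featureCounts 1.5.0-p3, HISAT2 2.0.5 and CASAVA. All 58735 gene IDs matched GENCODE 29, the source of symbols and coordinates. Of 227 genes named by the rule below, 100 overlap a gene on the other strand, with which their reads cannot be told apart.

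From the deposited counts, edgeR 4.0.16 (R 4.3.3) fitted 1 mean per group to all 18 libraries with TMM scaling, filterByExpr (minimum count 10, minimum total 15) and a robust quasi-likelihood fit on 12 residual degrees of freedom. Contrasts were fractal THP-1 minus fractal control, smooth THP-1 minus smooth control, and the difference of the 2. P-values were adjusted by Benjamini-Hochberg over all genes tested, with a threshold of 0.05. Log2 fold changes used a prior count of 2, which draws them toward 0, most where counts are few. The biological coefficient of variation was 12.2%, and 8.54% without fractal THP-1 replicate 3. CPM are counts per 1e6 counts with TMM scaling, except that marker sums and the shares of mitochondrial genes and FN1 use unscaled totals. A CPM compares a gene between libraries, not genes with each other, since it is not divided by length. A fold against a group with no count used 3 counts in that group as the floor, and genes with 1 to 3 counts in a group have a ratio with an exact 95% interval. Intervals cover counting error only. Depth was 11488204 to 21264180 counts per library in the compared fractal groups.

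Genes were named by rule: the 12 largest rises and 12 largest falls in protein-coding genes of at least 5 CPM, called with and without fractal THP-1 replicate 3 and without overlap between groups, up to 4 members of each of 33 lists in each direction by adjusted p, a panel of podocyte and inflammation genes, and up to 6 genes in each direction by the difference between topographies. Genes outside the rule were added where the text says so, and members that replicate 3 decides were named after their values were seen. The comparison, the lists and the rule were chosen with earlier results of these data known. Alternatives were RLE and upper-quartile scaling, other filters, DESeq2 1.42.0, limma-voom (limma 3.58.1), a fold threshold, fits to the compared groups alone, a replicate block and the removal of single libraries. The statistical scripts were tested on simulated data. Some genes of the lists are not reported here by name.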

Additional observations from a re-analysis of the deposited data

Results flagged for a closer look

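The THP-1 effect differed between fractal and smooth topography for 2134 genes by the test of the difference itself (edgeR's quasi-likelihood test, adjusted p below 0.05). Of the genes named for it, the log2 difference, fractal minus smooth, was 3.81 for BDKRB2, 3.71 for CHRD, 3.61 for SAA1, 3.50 for CLSTN2, 3.39 for EHF and 3.38 for SAA2. It was 2.72 for C3 and 1.95 for C1R among complement genes. It was 2.61 for CXCL6, 1.51 for CXCL1, 1.43 for SOD2 and 0.80 for IL6 among inflammatory genes, where ICAM1 had the other sign at -1.01. CDKN1A stood at 0.80 and POSTN at 0.77. CDKN1A had 240.1 CPM in fractal THP-1 and 244 CPM in smooth THP-1, against 131 CPM in fractal control and 231 CPM in smooth control.

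Among cell cycle genes the difference was -2.92 for CENPM, -2.73 for RRM2, -2.54 for CLSPN, -2.18 for MKI67, -2.06 for KIF20A and -1.76 for TOP2A. It was -2.90 for NRGN, -2.71 for CPA4 and -2.65 for SERPINB2. The lipid synthesis gene SCD stood at -0.73. Macrophage markers summed to 38.6 CPM in fractal THP-1 and 80.2 CPM in smooth THP-1 libraries. None of the 13 tested was called in the test of the difference, and the part of the macrophage RNA in the differences above was not tested.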

How the results depend on the processing

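With all alternatives that kept the threshold on adjusted p alone, 6586 to 8806 genes were called on fractal topography. Leaving out 1 library at a time gave 7223 to 8592 genes there, 4602 to 4901 on smooth topography and 1632 to 3266 for the difference between topographies. Adding a log2 fold change of at least 1 left 2999, 1413 and 695 genes for these 3 results. Without fractal THP-1 replicate 3 and smooth cytokines replicate 2, both of which stood apart, the difference was called for 3642 genes. For these counts the cause was not tested beyond the construction of the fold threshold. On fractal topography the split was 4035 higher and 4114 lower, and it turned to 4205 and 3972 with RLE scaling, 4710 and 3535 with upper-quartile scaling and 4358 and 4049 with DESeq2. Fits to the compared groups alone called 6586 genes on fractal and 7654 on smooth topography, the other order from 8149 and 5655. On smooth topography 7385 genes were called without the 2 libraries that stood apart. The replicate block gave 8059, 5565 and 2086 genes. Same-numbered libraries deviated from their group means with correlations of -0.0311 to 0.0487, so the numbers were not taken as pairs. Of 239 results on named genes, 227 kept direction and call under every alternative run. The others lost their call under at least 1 of them, such as IFITM2, IFIT5, C5, DNAJB9 and RGS5 in the fit to the compared groups alone and the difference of SAA1 with limma-voom. With upper-quartile scaling the cell cycle list had 39 genes lower in place of 40. Depth limits genes near the floor, such as TNF, most of the macrophage markers and the podocyte markers at 0.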
